A study of Homo sapiens with 11 samples.

Results

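The locus of SOX10 (RefSeq gene 6663, chr22:37972312-37984555 on GRCh38.p14, 12244 bp) was described as the gene with 100 kb on either side, chr22:37872312-38084555, a window of 212244 bp. Its members were all peaks that shared at least 1 bp with this window, which came to 321 of the 888435 narrow peaks in 10 libraries and 110 of the 286303 broad peaks in 4 of them. The libraries came from chromatin immunoprecipitation followed by sequencing (ChIP-seq) in 92-1, an established cell line grown from a uveal melanoma, a tumour of the pigment cells of the eye. The cells had received DMSO, the solvent, or FHT-1015, which blocks the ATPase activity of SMARCA4 (BRG1) and SMARCA2, for 4 h. In each condition 1 library was made with an antibody against SOX10, MITF, TFAP2A, SMARCA4 or the histone mark H3K27ac, and an input library from DMSO cells, without an antibody, was not analysed here. With 1 library in each group and 1 cell line there was no replicate, so no test was made and every comparison below is between 2 libraries.

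SOX10 is a transcription factor of the SoxE group that neural crest cells make and that melanocytes, Schwann cells and oligodendrocytes keep. In pigment cells it works together with MITF, whose gene it activates, and TFAP2A is a further factor of the neural crest and the melanocyte lineage. The SOX10 gene is read from enhancers spread over a wide stretch on both of its sides, and some of these are known to be bound by SoxE factors, SOX10 itself included. BAF complexes, driven by SMARCA4 or SMARCA2, use ATP to move nucleosomes off such sites, and H3K27ac marks active enhancers and promoters. SOX10 lies on the reverse strand, so its start is the higher coordinate, 37984555. Distances below are counted from that base in kb, with positive values upstream of the gene and negative values in and beyond it.

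Besides SOX10, 11 RefSeq genes shared a base with the window, namely the protein-coding EIF3L, MICALL1, C22orf23, POLR2F, PICK1 and SLC16A8, the microRNA genes MIR6820 and MIR4534, the long non-coding RNA genes POLR2F-AS1 and LOC105373027 and the pseudogene RNU6-900P. The annotated extent of POLR2F, a gene for a subunit shared by the RNA polymerases, runs from 37953663 to 38041915 on the forward strand and covers the whole of SOX10 and the first 57.4 kb upstream of it. Exons and introns were not analysed here. RefSeq promoter sequences (GRCh38.p14, 250 bases before to 50 after a start) were found for 7 of the 12 genes. The 4 shown here lie under or beside peaks described below: that of POLR2F-AS1, an antisense RNA within POLR2F, where a SOX10 peak was still listed in FHT-1015, that of SLC16A8, a lactate transporter gene, where the SOX10 peak was lost, and those of MICALL1 and POLR2F, where weak SOX10 peaks were kept. Capitals mark matches, on either strand, to ACAAAG or ACAATG (SOX factors), CATGTG or CACGTG (the M-box and E-box of MITF) and GCCNNNGGC (AP-2 factors, N being any base). Sequences run 5′ to 3′ on the strand of their gene.
POLR2F-AS1, chr22:38034179-38034478, reverse strand: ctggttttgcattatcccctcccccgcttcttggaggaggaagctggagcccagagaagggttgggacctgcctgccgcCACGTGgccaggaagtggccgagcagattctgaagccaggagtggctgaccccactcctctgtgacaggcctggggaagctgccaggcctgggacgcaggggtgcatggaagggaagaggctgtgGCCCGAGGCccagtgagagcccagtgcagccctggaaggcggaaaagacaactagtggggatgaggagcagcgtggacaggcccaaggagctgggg
SLC16A8, chr22:38084135-38084434, reverse strand: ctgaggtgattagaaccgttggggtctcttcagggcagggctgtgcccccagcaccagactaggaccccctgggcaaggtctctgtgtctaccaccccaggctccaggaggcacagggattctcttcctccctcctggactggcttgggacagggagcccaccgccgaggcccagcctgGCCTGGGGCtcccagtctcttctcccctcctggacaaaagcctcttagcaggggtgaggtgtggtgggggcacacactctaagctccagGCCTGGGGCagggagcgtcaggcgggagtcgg
MICALL1, chr22:37906047-37906346, forward strand: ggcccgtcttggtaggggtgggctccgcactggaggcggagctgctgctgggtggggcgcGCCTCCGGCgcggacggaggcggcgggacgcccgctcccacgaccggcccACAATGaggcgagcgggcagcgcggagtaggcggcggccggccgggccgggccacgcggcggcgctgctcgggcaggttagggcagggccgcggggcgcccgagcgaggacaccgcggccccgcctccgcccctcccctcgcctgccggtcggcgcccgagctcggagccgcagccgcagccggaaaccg
POLR2F, chr22:37953413-37953712, forward strand: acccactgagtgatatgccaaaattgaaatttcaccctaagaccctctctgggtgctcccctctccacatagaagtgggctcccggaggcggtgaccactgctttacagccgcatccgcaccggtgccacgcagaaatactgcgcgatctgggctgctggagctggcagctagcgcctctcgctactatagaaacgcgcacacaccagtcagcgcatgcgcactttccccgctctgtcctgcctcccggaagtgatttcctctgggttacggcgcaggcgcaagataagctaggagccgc
The POLR2F-AS1 promoter held 1 match to the MITF letters and 1 to the AP-2 letters, that of SLC16A8 held 2 AP-2 matches, that of MICALL1 held 1 SOX and 1 AP-2 match, and that of POLR2F held none. Over 34943 promoters of 300 bases, 24.5% held a SOX match, 17.6% an M-box or E-box match and 23.2% an AP-2 match. A match describes letters only and is not a measured site.

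All 6 pigment cell genes examined (MITF, PMEL, MLANA, TYR, TYRP1 and DCT) carried H3K27ac peaks in DMSO over 4.48% to 100% of their length, against at most 14.3% for 7 genes of lymphoid cells, hepatocytes and keratinocytes, of which 2 had any peak. Across the genome the SOX10 list went from 103379 to 33268 narrow peaks, while the other 4 antibodies gave between 0.706 and 1.04 times as many peaks in FHT-1015 as in DMSO. The lists hold no library totals, and reads at each summit were recovered from the deposited fold and p. Below, coverage is the number of reads at a summit divided by the mean coverage of that library, and ranges in brackets are 95% exact Poisson intervals and ranges in parentheses after a ratio are 95% exact binomial intervals of the 2 read counts. Both cover counting error only. This mean ran from 1.23 to 2.17 reads. It was highest in the SOX10 FHT-1015 library, which had the fewest peaks, and lowest in the MITF libraries, at 1.39 (DMSO) and 1.23 (FHT-1015); what depth did to the counts of MITF peaks was not tested. Peaks average over many cells, so binding in fewer cells and weaker binding per cell cannot be told apart.

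**Figure D1:**
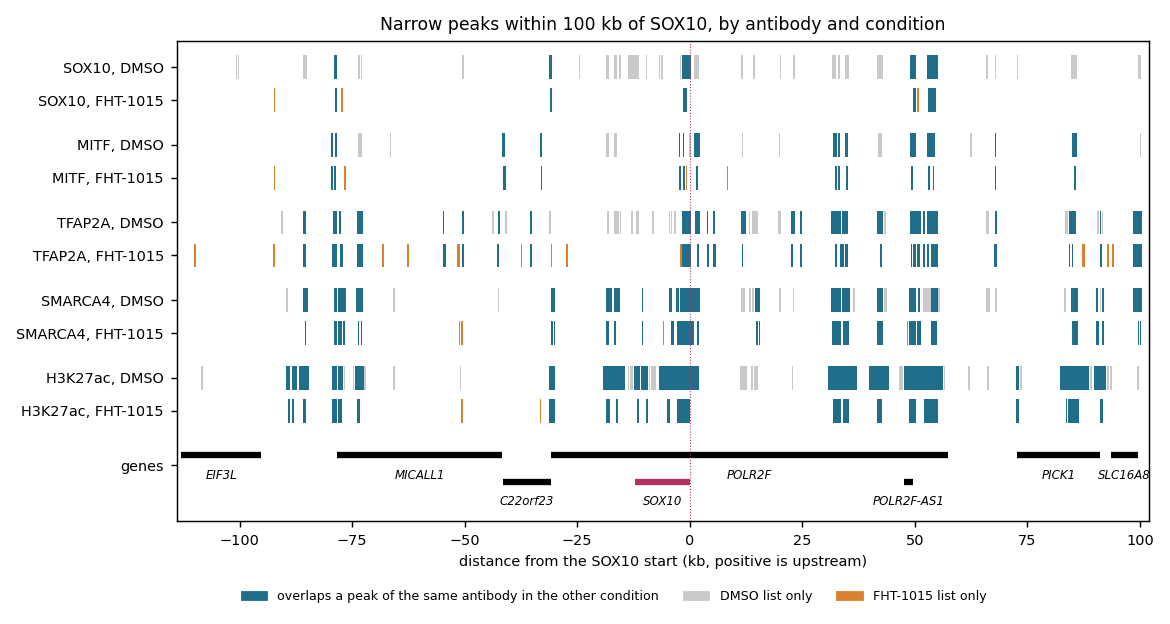
Narrow peaks of the 5 antibodies in DMSO and FHT-1015 by distance from the SOX10 start in kb (positive is upstream), with the larger genes at the bottom and SOX10 in red. Blue peaks overlap a peak of the same antibody in the other condition, grey peaks were in the DMSO list only and orange peaks in the FHT-1015 list only. SOX10 goes from 36 to 10 peaks, and H3K27ac from 41 to 25, with the wide DMSO blocks reduced to shorter peaks of at most 3280 bp.

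SOX10 itself was listed at 36 narrow peaks in its own window in DMSO and at 10 in FHT-1015. A DMSO peak was called retained when it shared at least 1 bp with a peak that the same antibody gave in FHT-1015, and 6 of the 36 were, which is 16.7% (95% Wilson interval 7.87% to 31.9%). Over the whole SOX10 list 18.3% were retained, a value inside that interval. The peaks of the window were stronger than the list, with a median −log10 p of 18.7 against 7.60, and among peaks whose −log10 p was 10 or more the window kept 6 of 24 (25%) and the list 33.0%. The length under SOX10 peaks went from 23.5 kb to 4.63 kb, which is 0.197 times the DMSO length in the window and 0.259 times over the list. The loss ran over all parts of the window: 14 of 16 peaks upstream of the gene, 5 of 7 over its body and 11 of 13 beyond its 3′ end had no FHT-1015 peak. On the map of peaks the remaining SOX10 peaks form 4 groups, at the MICALL1 and POLR2F starts, at the start of SOX10 and between +49 and +55 kb, apart from 1 lone peak at -92.3 kb.

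The highest SOX10 peak of the window lay 54.1 kb upstream of the gene, within the extent of POLR2F, at chr22:38037165-38039712 (2548 bp). It ranked 54th of 103379 in the DMSO list by p, with a −log10 p of 247.9, a deposited fold of 22.6 over background and a coverage of 130 [114 to 147]. In FHT-1015 this one wide peak was listed as 3 shorter peaks of 596, 596 and 333 bp at +53.4, +54.0 and +54.5 kb, with coverages of 16.1, 36.3 and 15.6. The highest of them was 0.279 times the DMSO value (0.214 to 0.361), and with a −log10 p of 35.7 it was still the strongest SOX10 peak of the window in FHT-1015, ranked 961st of 33268. The other retained peaks were far weaker in FHT-1015. At the adjacent +49.3 kb peak (chr22:38033394-38034888) coverage went from 65.8 to 14.3, a ratio of 0.217 (0.141 to 0.323). The FHT-1015 peak there, chr22:38034241-38034762, had its summit at +49.8 kb, inside the POLR2F-AS1 promoter printed above.

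The other 4 of the 5 strongest DMSO peaks by p were all lost, and their upper limits in FHT-1015 were low. These lay at +100 kb beside SLC16A8 (chr22:38084174-38084880, coverage 58.0), at +32.2 kb (chr22:38016244-38017145, 74.6), at +34.8 kb (chr22:38019014-38019890, 62.7) and at -85.5 kb (chr22:37898716-37899438, 55.4). For a lost peak, the lowest coverage that would have reached the list at the same local background was computed. It came to 5.98 at +100 kb, 10.1 at +32.2 and +34.8 kb and 7.82 at -85.5 kb, so FHT-1015 coverage there was below 0.103, 0.136, 0.161 and 0.141 times the DMSO value. Strong peaks at +42.5 kb (57.5), +85.0 kb in PICK1 (75.6) and +1.3 kb (48.2) were lost as well. Over the 30 lost peaks this limit was a median 0.407 times the DMSO coverage, and for 18 of them it was below 0.5. The other 12 had so little coverage in DMSO, or so high a local background, that a fall to 0.5 would also have taken them off the list.

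SOX10 peaks were also kept at 3 gene starts. At the SOX10 start, the DMSO peaks at -1.4 and -0.1 kb had coverages of 31.6 [24.2 to 40.6] and 33.7 [26.0 to 42.9], and a single FHT-1015 peak over both, chr22:37982980-37984052, reached 19.3. This peak ended short of the annotated start, which the DMSO peak chr22:37983780-37984826 had covered. At the divergent POLR2F and C22orf23 starts (-30.8 kb) coverage was 24.3 in DMSO and 16.6 in FHT-1015, a ratio of 0.680 (0.428 to 1.07). At the MICALL1 start (-78.6 kb) it was 11.9 and 7.82, a ratio of 0.656 (0.329 to 1.28). The intervals of both ratios include 1, so a fall was not detectable at this depth. The SOX letters matched in the MICALL1 promoter lie outside the FHT-1015 peak, which ended before that sequence begins, and the POLR2F promoter held its peak with no match. The 3 SOX10 peaks listed in FHT-1015 only were weak, with coverages of 6.44 at -92.3 kb, 7.36 at -77.3 kb in MICALL1 and 11.5 at +50.6 kb.

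**Figure D2:**
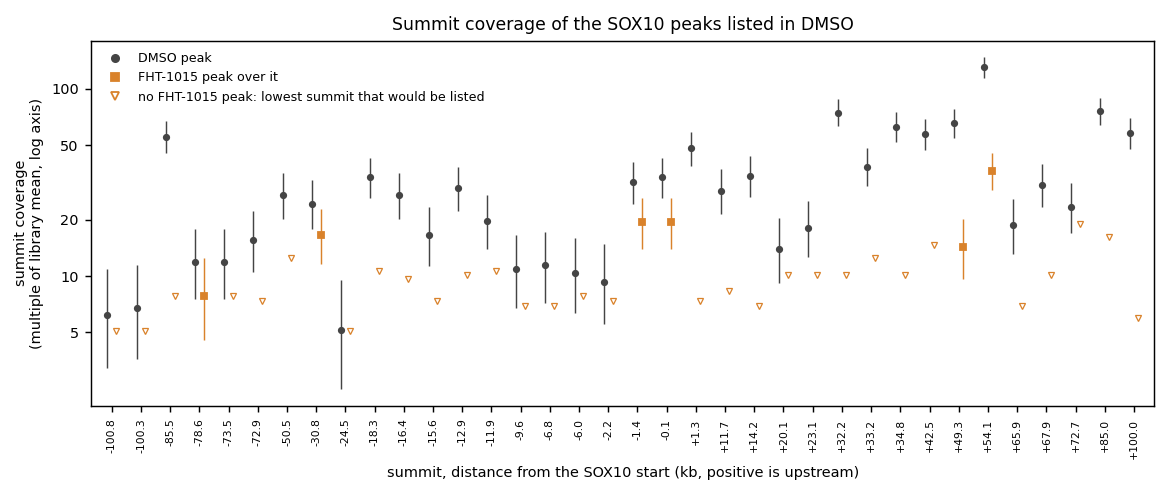
Summit coverage (multiple of the library mean, log axis) of the 36 SOX10 peaks of DMSO, ordered by distance from the SOX10 start in kb. Grey circles are DMSO, orange squares the highest FHT-1015 peak over the same place, bars 95% Poisson intervals, and open triangles the lowest coverage that would have been listed where FHT-1015 had no peak. All 6 squares lie below their circles, and the triangles of the strong peaks at +32.2, +34.8 and +100 kb lie far below theirs.

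The other antibodies were lost from the window to different degrees. MITF went from 27 to 19 peaks with 15 retained (55.6%, against 36.2% over its list), and TFAP2A from 48 to 43 with 26 retained (54.2%, against 54.9%). SMARCA4 went from 41 to 31 with 24 retained (58.5%, against 52%), and H3K27ac from 41 to 25 with 18 retained (43.9%, against 59.3%). The length under peaks shrank further than these counts. It was 0.425 times the DMSO length for MITF, 0.641 for TFAP2A, 0.616 for SMARCA4 and 0.369 for H3K27ac. Over the whole lists the same ratios were 0.847, 0.835, 1.00 and 0.764. H3K27ac peaks covered 66.7 kb, or 31.4% of the window, in DMSO and 24.6 kb, or 11.6%, in FHT-1015. Peaks in the FHT-1015 list only numbered 4 for MITF, 13 for TFAP2A, 4 for SMARCA4 and 2 for H3K27ac.

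Peaks that stayed were also lower for 4 of the 5 antibodies. The median ratio of FHT-1015 to DMSO coverage over retained peaks was 0.592 for SOX10 (6 peaks), 0.584 for MITF (15), 0.703 for TFAP2A (26) and 0.684 for H3K27ac (18). Over all retained peaks of the same lists the medians were 0.601, 0.806, 0.904 and 1.24. For SMARCA4 the median was 1.01 over 24 peaks, against 1.16 over its list, and it became 0.902 when the FHT-1015 summit nearest to the DMSO summit was taken in place of the highest. Intervals of the ratio lay wholly below 1 for 4 SOX10, 7 MITF, 11 TFAP2A, 3 SMARCA4 and 9 H3K27ac peaks, and wholly above 1 for 3 SMARCA4 and 4 H3K27ac peaks. With the nearest summit these counts were 12 for TFAP2A and 10 for H3K27ac below 1 and 2 for SMARCA4 above 1, and the others did not differ.

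SMARCA4 coverage just inside the start of SOX10 was higher in FHT-1015. In DMSO 3 SMARCA4 peaks stood next to each other there, chr22:37981494-37982238, chr22:37982425-37984558 and chr22:37984637-37986793, with coverages of 14.7, 31.5 and 18.9. In FHT-1015 a peak of 3668 bp, chr22:37981724-37985391, touched all 3 and reached 49.8 from 88 reads at -1.1 kb, where the middle DMSO peak had 60 reads. The ratio at that summit was 1.58 (1.13 to 2.23). The median ratio over all retained SMARCA4 peaks, 1.16, lies inside that interval, and coverage relative to the library mean does not show an absolute gain. Upstream of the start, at +1.7 kb, where the third DMSO peak had its summit from 36 reads, a second FHT-1015 peak, chr22:37986098-37986633, had 23 reads, a coverage ratio of 0.689 (0.390 to 1.19). The 3 SMARCA4 ratios with an interval above 1 all set a DMSO peak of this group against the summit at -1.1 kb. Only the middle peak had its own summit there, while the first had it at -2.6 kb and the third at +1.7 kb. For the first peak the nearest FHT-1015 summit was also that at -1.1 kb. The TFAP2A peak over the start reached 81.0 at -0.1 kb in DMSO (chr22:37982863-37984894). In FHT-1015 (chr22:37982742-37984852) it reached 78.2 at -1.5 kb, a ratio of 0.966 (0.750 to 1.24). The summits lay at different places, so this ratio does not give the change at either place. The MITF peak over the start, chr22:37984411-37984826 (17.9), was lost, while the MITF peaks at -2.2, -1.5 and +1.6 kb were retained with coverages of 11.5, 20.8 and 41.6 in DMSO and 13.8, 13.8 and 24.3 in FHT-1015. All 5 antibodies were thus still listed around the gene start, but no SOX10 or MITF peak of FHT-1015 covered the annotated start itself. The SOX10 ratios were 0.574 and 0.611. The lower of them set a DMSO summit at -0.1 kb against the FHT-1015 summit at -1 kb.

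H3K27ac over the gene covered less length in FHT-1015 and was highest near the start in both conditions. In DMSO 1 peak of 8977 bp, chr22:37977731-37986707, ran from within the gene to beyond the start with a coverage of 127, the widest H3K27ac peak of the window. In FHT-1015 the start was covered by chr22:37981698-37984702, 3005 bp long, at 53.4, a ratio of 0.422 (0.332 to 0.533). The summits lay at -1 kb in DMSO and -0.2 kb in FHT-1015, so this ratio does not give the change at either place. Weak peaks were also listed in the gene body at -11.5, -9.6 and -4.6 kb, with coverages of 11.2, 13.2 and 12.7. H3K27ac over the gene body went from 10.97 to 3.90 kb of covered length, and the upstream edge moved from 2.2 kb beyond the start to 0.1 kb beyond it. The SOX10 peak at +1.3 kb (chr22:37985496-37986571), the strongest near the gene, lay in that stretch and lost both SOX10 and H3K27ac, while MITF, TFAP2A and SMARCA4 were still listed over it. In the gene body 5 of 7 SOX10 and 6 of 7 TFAP2A peaks were lost, against 1 of 3 MITF peaks and 0 of 4 SMARCA4 peaks.

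The broad lists gave the same picture over the gene. In DMSO the gene body was covered by H3K27ac broad peaks of 6341 and 8977 bp, and the longer ranked 374th of 53087 by width. In FHT-1015 5 broad peaks were listed there, of 730, 236, 527, 532 and 3156 bp. SMARCA4 had broad peaks of 254, 818 and 5933 bp in DMSO, and the longest, chr22:37981494-37987426, ranked 41st of 100927 by width. In FHT-1015 they measured 248, 269 and 5365 bp, and the longest, chr22:37980027-37985391, ranked 105th of 91155. Over the window the broad lists went from 28 to 23 peaks for H3K27ac and from 35 to 24 for SMARCA4, with 16 and 23 retained.

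The upstream enhancers differed in what they kept. For an overview, peaks of the 4 proteins from both conditions were merged into 70 elements, and H3K27ac was assigned by overlap. SOX10 was lost from 24 of them, was listed in both conditions at 5 and only in FHT-1015 at 3, and 38 never had it. All 5 elements that kept SOX10 had H3K27ac, SMARCA4 and TFAP2A in both conditions, and 4 of them had MITF in both. Of the 24 that lost it, 18 had H3K27ac in DMSO and 11 in FHT-1015, of which 10 had it in both. SMARCA4 was listed at 14 in DMSO and 11 in FHT-1015, with 9 in both. In FHT-1015 8 of the 24 had H3K27ac and SMARCA4 together, 3 had H3K27ac alone, 3 had SMARCA4 alone and 10 had neither.

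Counted by peak, 14 of the 30 lost SOX10 peaks (46.7%) lay under an FHT-1015 peak of H3K27ac, against 32.7% of all lost SOX10 peaks in the genome. For SMARCA4 it was 15 (50%, against 35.6%), for MITF 7 (23.3%, against 18.1%) and for TFAP2A 13 (43.3%, against 34.4%). Weak peaks are common in the whole list, and among its lost peaks whose −log10 p was 10 or more the shares were 46.1%, 51.2%, 28.4% and 43.7%. Of the 18 lost peaks of the window that strong, 9 (50%), 12 (66.7%), 6 (33.3%) and 11 (61.1%) lay under these peaks. In DMSO the same 30 peaks had lain under H3K27ac at 23, SMARCA4 at 20, MITF at 15 and TFAP2A at 22 places. All 6 retained peaks lay under H3K27ac, SMARCA4 and TFAP2A in both conditions, against 81.7%, 77.2% and 79.5% in FHT-1015 over all retained SOX10 peaks. All 6 had a −log10 p of 10 or more, and over the retained peaks of the list that strong the shares were 92.0%, 87.0% and 89.3%. The median −log10 p in DMSO was 26.1 for retained and 15.04 for lost peaks of the window. Among those of 10 or more it was 26.1 and 27.6.

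**Figure D3:**
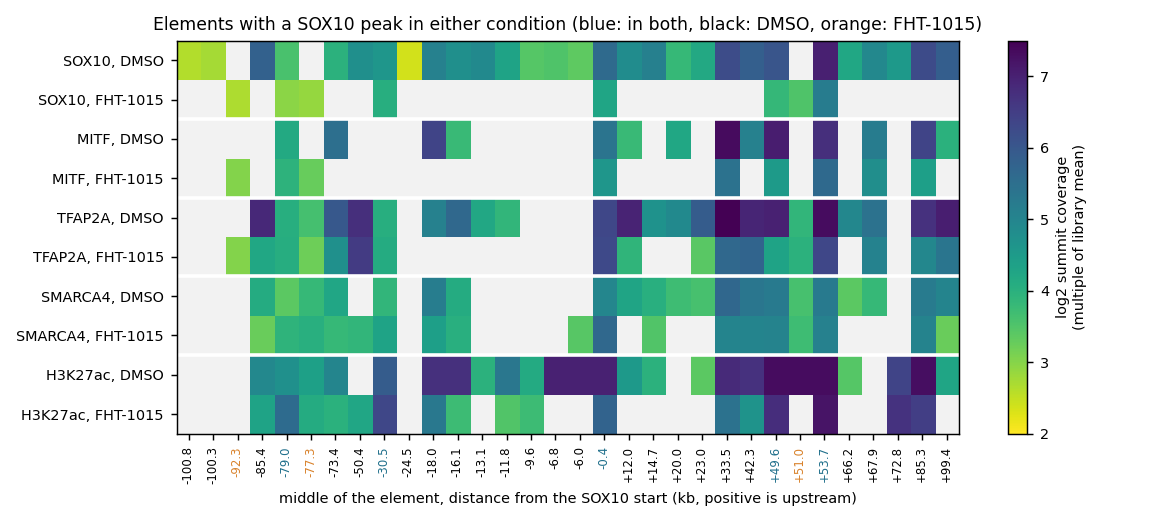
Each column is 1 of the 32 elements with a SOX10 peak in either condition, by distance of its middle from the SOX10 start in kb, and each row a library. Colour gives the log2 summit coverage (multiple of the library mean) of the highest overlapping peak, whose summit for H3K27ac may lie outside the element, and pale grey means that no peak was listed. Blue labels (5) kept SOX10, black labels (24) lost it and orange labels (3) had it only in FHT-1015.

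The pair of elements at +49.6 and +53.7 kb kept all 5 antibodies. In DMSO 1 H3K27ac peak of 8608 bp, chr22:38032146-38040753, spanned both with a coverage of 159. In FHT-1015 it was listed as 2 peaks, chr22:38033264-38034881 at 109 and chr22:38036500-38039779 at 148, with summits at +49.7 and +54.0 kb. The DMSO summit lay at +49.6 kb, and the ratio there was 0.688 (0.575 to 0.822), while the higher FHT-1015 summit at +54.0 kb was 0.932 (0.791 to 1.10) times that DMSO summit. SMARCA4 was 38.3 and 32.8 at +49.2 kb and 38.3 and 33.9 at +54.0 kb, with ratios of 0.857 (0.596 to 1.23) and 0.886 (0.619 to 1.26). A further SMARCA4 peak of the farther element, at +53.1 kb (chr22:38036832-38038055, 29.4), was lost from the narrow list, with a limit of 0.308 times the DMSO value. In the broad list of FHT-1015 a SMARCA4 peak, chr22:38037632-38039578, still covered its summit. The factors had lower ratios. At the nearer element MITF went from 133 to 22.7 (chr22:38033483-38034846, ratio 0.170) and TFAP2A from 127 to 19.9 (0.156). At the farther one MITF went from 108 to 49.4 (chr22:38037332-38038090, 0.459) and TFAP2A from 159 to 80.0 (chr22:38037316-38039727, 0.504). The intervals of these 4 ratios and of the H3K27ac ratio at +49.6 kb lay wholly below 1, and those of both SMARCA4 ratios included 1.

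The element between +31 and +36 kb lost SOX10 but kept the other 4 antibodies, each with a lower highest summit. It held 3 SOX10 peaks in DMSO (coverages 74.6, 38.3 and 62.7), and it held the strongest MITF, TFAP2A and SMARCA4 peaks of the window, all with summits at +34.8 kb. There MITF went from 162 to 42.9 (chr22:38019012-38019801, ratio 0.265), TFAP2A from 182 to 49.6 (chr22:38018302-38019818, 0.272) and SMARCA4 from 50.9 to 21.5 (chr22:38018381-38020051, 0.422). H3K27ac, a peak of 6553 bp in DMSO (chr22:38015173-38021725), went from 114 to 43.2 (0.379), and was listed in FHT-1015 as 2 peaks of 1757 and 1248 bp. Within the same element SMARCA4 at +32.1 kb stood at 24.6 in DMSO and 32.2 in FHT-1015, a ratio of 1.31 (0.873 to 1.97). The next element, at +42.3 kb, lost SOX10 and MITF and kept SMARCA4 (40.4 and 32.2), TFAP2A (121.1 and 52.7) and H3K27ac (105 and 25.4, a ratio of 0.243).

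Nearer elements, between +11 and +24 kb, lost most of their peaks. All 4 SOX10 peaks there, with DMSO coverages of 28.5, 34.2, 13.99 and 18.1, were lost. H3K27ac had 4 peaks there, of 10.4 to 22.9 in coverage, and none was listed in FHT-1015. SMARCA4 went from 6 narrow DMSO peaks with 1 retained, at +14.9 kb, where coverage was 13.1 and 9.61, beside a second FHT-1015 summit of 11.3 at +15.4 kb. In the broad lists an FHT-1015 SMARCA4 peak, chr22:37997968-37998501, reached the lost narrow peaks at +13.4 and +14.1 kb. TFAP2A at +11.7 kb went from 124 to 14.9 (chr22:37995939-37997096, ratio 0.120), the lowest ratio among the retained TFAP2A peaks of the window, and MITF was lost at +11.6 and +20.0 kb. At their local backgrounds, the 4 H3K27ac peaks would have needed a summit of 7.12 to 9.16 times the mean for a call in FHT-1015. These limits were 0.333 to 0.732 times their DMSO coverage, the lowest at +12 kb.

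Farther out, 3 strong SOX10 elements were lost with differing remainders. At +85 kb in PICK1, a gene for a synaptic scaffold protein, SOX10 (75.6) was lost while SMARCA4 stood at 37.2 and 32.8, MITF at 83.2 and 21.1, TFAP2A at 105 and 31.0 and H3K27ac at 156 and 89.0. The H3K27ac summits lay apart, at +85.9 kb in DMSO and +85.1 kb in FHT-1015. The H3K27ac peak there in DMSO, chr22:38066814-38073295 (6482 bp), was the strongest of the window by p and ranked 21st of 68093. At +100 kb, the SLC16A8 start, SOX10 (58.0), MITF (15.8) and H3K27ac (19.3) were lost, TFAP2A went from 132 to 41.0 (chr22:38082996-38084952) and SMARCA4 from 32.5 to 9.61 (chr22:38083070-38084931), a ratio of 0.296 (0.162 to 0.512). At +67.9 kb SOX10 (30.6) and SMARCA4 (14.2) were lost and MITF (36.6 and 27.5) and TFAP2A (43.3 and 33.5) stayed. No H3K27ac peak lay there in either condition.

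Downstream of the gene, the element at -18 kb lost all 3 factors and kept the mark and the remodeller. SOX10 (33.7), MITF (82.5, chr22:37965845-37966591) and TFAP2A (34.0) had no FHT-1015 peak there. SMARCA4 went from 36.2 to 20.9, a ratio of 0.578 (0.377 to 0.874), and H3K27ac from a peak of 4810 bp at 107 (chr22:37965274-37970083) to 974 bp at 39.2. In contrast, TFAP2A at -50.4 kb in MICALL1 was nearly level (108 and 93.7, ratio 0.866 with an interval of 0.692 to 1.08) where SOX10 (26.9) was lost, and weak narrow peaks of SMARCA4 (14.7) and H3K27ac (18.8) were listed there in FHT-1015 only. For H3K27ac this was not so in the broad lists, where chr22:37933276-37933971 of DMSO reached the same place, and a weak narrow DMSO peak (10.4) lay beside it at -51.0 kb. At -85.5 kb SOX10 (55.4) was lost, TFAP2A went from 117 to 18.6, and SMARCA4 (17.3 and 9.61) and H3K27ac (30.7 and 19.8) stayed.

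At the starts of 4 neighbouring genes H3K27ac coverage was higher in FHT-1015. Coverage at the POLR2F and C22orf23 starts was 59.4 in DMSO and 80.4 in FHT-1015 (ratio 1.35, 1.06 to 1.74), at the PICK1 start 82.9 and 103.3 (1.25, 1.01 to 1.54) and at the MICALL1 start 26.6 and 47.8 (1.80, 1.27 to 2.58). These 3 places account for all 4 H3K27ac ratios above 1 in the window, since the MICALL1 peak of FHT-1015 also overlapped a weak DMSO peak at -79.5 kb. H3K27ac was lost at the SLC16A8 start and was lower at the POLR2F-AS1 start, as given above. SOX10 had been listed at all 3 places of higher H3K27ac in DMSO, and was lost at PICK1 only, where the limit for a call was 0.809 times the DMSO coverage of 23.3. Coverage relative to the library mean does not show an absolute gain, and over all retained H3K27ac peaks the median ratio was 1.24.

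**Figure D4:**
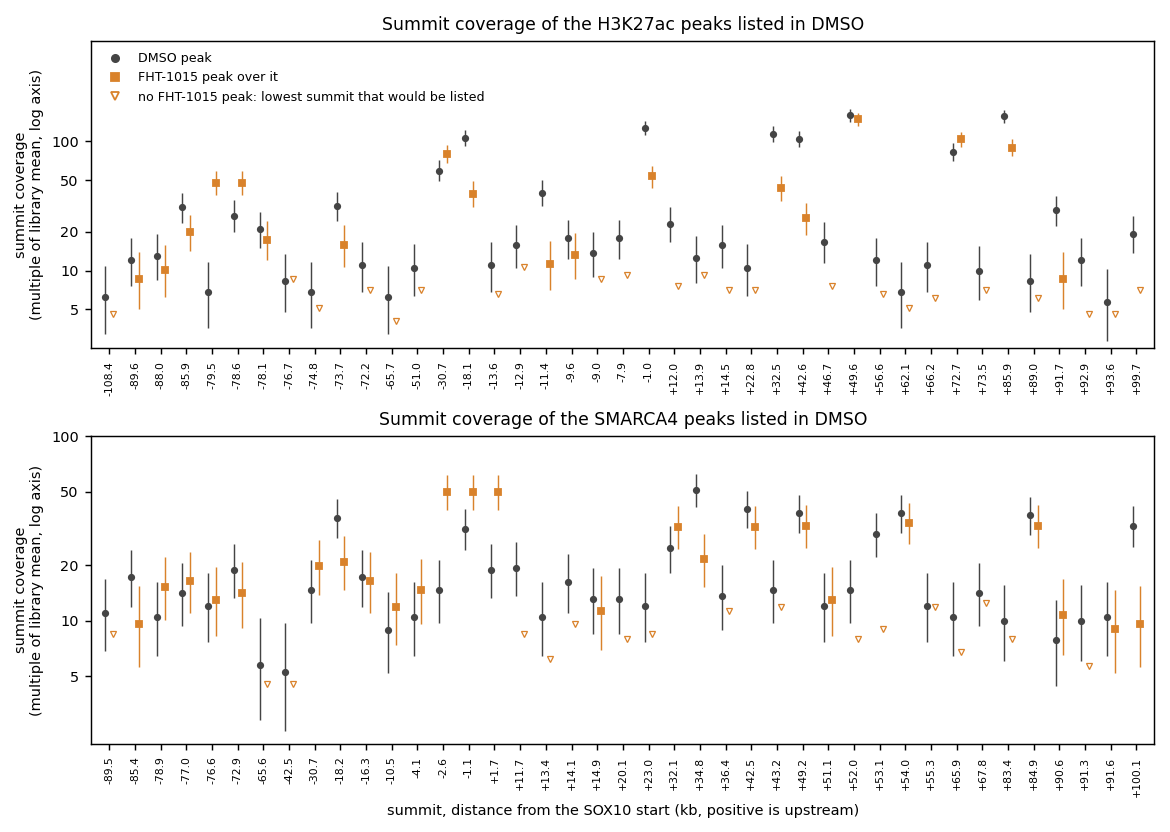
Summit coverage (multiple of the library mean, log axis) of the 41 H3K27ac (top) and 41 SMARCA4 (bottom) peaks of DMSO by distance from the SOX10 start in kb, with symbols and bars as for SOX10. H3K27ac squares lie above their circles at the gene starts at -78.6, -30.7 and +72.7 kb and at the weak peak beside the first of them. The 3 highest SMARCA4 squares, at -2.6, -1.1 and +1.7 kb, are the same FHT-1015 peak.

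The same window was drawn around each of 20052 protein-coding genes, as a description, since windows overlap and are not independent. In DMSO it held 36 SOX10 peaks against a median of 12 per gene, and 41 H3K27ac peaks against 8, which placed SOX10 438th and 202nd. Among the 3007 genes with at least 20 H3K27ac peaks, 1.73% had a smaller ratio of H3K27ac length than the 0.369 of SOX10, where the median gene had 0.765. For SMARCA4 2.36% of 4829 genes lay below its 0.616 (median 1.08), for MITF 8.54% of 1826 below its 0.425 (median 0.719) and for TFAP2A 12.4% of 8645 below its 0.641 (median 1.02). For SOX10 binding itself 27.8% of 4553 genes lay below its 0.197 (median 0.283). By length, the SOX10 window was thus far out in the distribution for H3K27ac and SMARCA4 and well inside it for SOX10 peaks. By the share of DMSO peaks retained it was less far out. Of the same genes, 13.8% had a lower share for H3K27ac, 45.5% for SMARCA4 and 71.6% for MITF. For TFAP2A it was 19.9% of genes and for SOX10 28.0%.

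**Figure D5:**
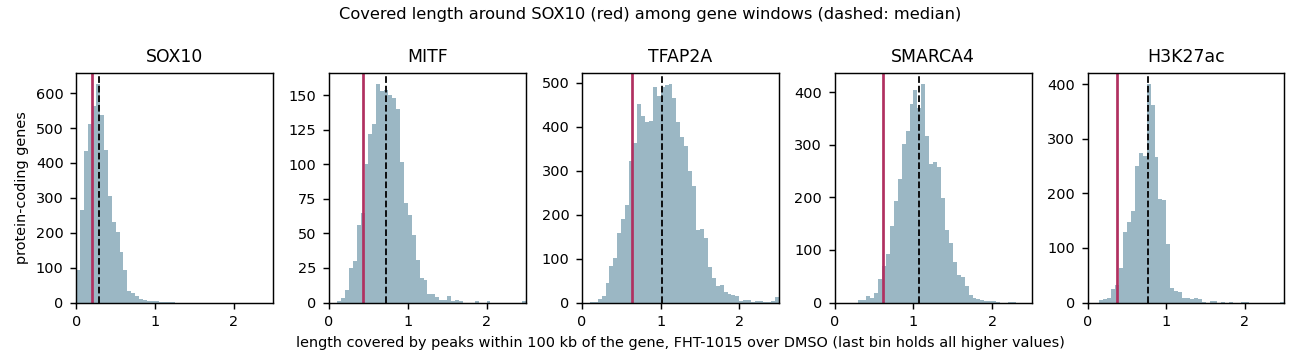
Number of protein-coding genes (y axis) by the ratio of FHT-1015 to DMSO length under peaks within 100 kb of the gene (x axis), for genes with at least 20 DMSO peaks of that antibody. The red line is the SOX10 window and the dashed line the median gene. The red line lies at 0.369 for H3K27ac and 0.616 for SMARCA4, in the lower tail of both, and at 0.197 for SOX10, inside the bulk.

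The 5 genes whose windows were most like that of SOX10 were SEMA4A, SPAG9, LMNA, MEX3A and SLC25A44, by Euclidean distance of log2(peaks + 1) over the 10 libraries (0.486 to 0.645, against a median of 5.13 over all genes). SEMA4A, LMNA, MEX3A and SLC25A44 lie close together on chromosome 1 and share peaks. The choice by peak numbers fixed a similar number of H3K27ac peaks (SEMA4A 37 and 20, SPAG9 33 and 23), so that likeness is not a result. Length was not part of the choice. H3K27ac went from 58.2 to 36.1 kb around SEMA4A, 35.4 to 26.9 kb around SPAG9 and 63.4 to 38.7 kb around LMNA. Around SOX10 it went from 66.7 to 24.6 kb. TFAP2A peaks were retained at 70.7% to 85.4% in these 5 windows and at 54.2% around SOX10. The shares for SOX10, SMARCA4 and H3K27ac were also higher in all of these windows than around SOX10. MITF went the other way, with 42.3% to 50% retained against 55.6% around SOX10.

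Windows around other genes of the SOX10 network were compared by the same rule. Of 9 genes that are known or possible regulators of SOX10 (PAX3, TFAP2A, TFAP2B, SOX9, FOXD3, LEF1, TCF7L2, SNAI2 and ZEB2) all 9 had fewer SOX10 peaks in FHT-1015, and so had 12 of 13 known targets, as had 92.7% of all genes. TYRP1, a pigment enzyme gene, was the target with equal counts, 32 and 32. The share of SOX10 peaks retained was a median 34.6% around the regulators and 24.3% around the targets, against 20.0% over all genes and 16.7% around SOX10. Over genes with at least 20 SOX10 peaks in DMSO the median was 24.3%, the same as around the targets. It was 50% of 68 peaks around PAX3, a neural crest regulator of SOX10 and MITF, and 32.4% of 68 around MITF. H3K27ac length stayed at 131 and 132 kb around PAX3, 115 and 135 kb around MITF and 52.4 and 48.9 kb around TFAP2A. The lowest H3K27ac ratio of the 13 targets, 0.474 around DCT (11.02 and 5.22 kb), and the lowest of the regulators, 0.582 around LEF1 (6.88 and 4.00 kb), were both above the 0.369 of SOX10. The other SoxE genes had little of either: around SOX9 the number of SOX10 peaks was 10 in DMSO and 1 in FHT-1015, with 2.90 and 1.80 kb of H3K27ac, and around SOX8 it was 11 and 4, with 5.16 and 3.01 kb.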

How the data were processed

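Per the labels, ChIP-seq libraries were made from formaldehyde-fixed, sonicated chromatin. Per the submitters' processing notes, BWA, SAMtools, Picard and MACS2 were used on hg38, and settings and versions were not given in the sources used here. The authors deposited 10 narrow and 4 broad peak lists, 1 per library and not pooled. The deposited score column (10 times −log10 p in narrow lists, truncated) was not used. The deposited fold, a ratio over the caller's background, and the −log10 p and −log10 q deposited by the authors served to rank peaks and set filters inside each list. Every list reached down to a −log10 p of about 2, so weak peaks were included.

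Summit reads were recovered on the assumption that the fold is (reads + 1)/(background + 1) and p a Poisson tail, within 0.0005 in −log10 p, for 100% of peaks in all lists. The SOX10 FHT-1015 pileup was whole after division by 0.890, so it had been scaled down. The lowest background shared by at least 1% of peaks was taken as the mean coverage, divided by 0.890 for that library. The procedure was tested on data simulated with the same formulas, which cannot check the assumed form of the deposited fold and p. The strand of SOX10 came from general knowledge. Python 3.11.15, numpy 2.4.6, pandas 2.3.3 and scipy 1.17.1 were used.

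Groups came from the sample titles, in which the antibody called TFAP2A here is written AP-2. Named genes were SOX10, all RefSeq genes in its window, the 5 most similar windows and the network and marker lists. Named peaks were all FHT-1015 SOX10 peaks, by p the 5 strongest SOX10 and the 3 strongest other DMSO peaks of each antibody, those over the start and broad peaks over the gene body, and others named beside them were chosen after their values were seen. Members and lists were chosen with earlier results of these data known, and the minimum of 20 peaks per gene window after seeing the data. Alternatives covered the overlap rule, p and q filters, window size, broad lists, merging distance and the summit used.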

Additional observations from a re-analysis of the deposited data

How the results depend on the processing

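No paired analysis was possible because each group held 1 library, and for the same reason no replicate could be left out. Ratios of peak numbers stayed below 1 for the 5 antibodies under each alternative run, and the median SMARCA4 coverage ratio went from 1.01 to 0.902 with the nearest summit. Values that moved are these; the cause was not tested. With only peaks whose −log10 p was 10 or more the retained share was 4.17% for SOX10, 33.3% for MITF, 36.7% for TFAP2A and 60% for H3K27ac, and the ratio of peak numbers 0.0417 for SOX10, 0.333 for MITF and 0.367 for TFAP2A; 7 of 19 elements that lost SOX10 had SMARCA4 in FHT-1015. With that filter on DMSO peaks alone the share was 85.7% for SMARCA4 and 75% for H3K27ac. With 50% of the DMSO peak covered it was 8.33% for SOX10, 25.9% for MITF, 39.0% for SMARCA4 and 14.6% for H3K27ac. With summits within 200 bp it was 8.33% for SOX10 and 41.5% for SMARCA4. The SOX10 share of 16.7% given above therefore depended on the 1 bp rule. Within 20 kb the share was 26.3% for TFAP2A and the peak ratio 0.125 for SOX10 and 0.421 for TFAP2A. Over the gene body alone the share was 14.3% for TFAP2A, 100% for SMARCA4 and 60% for H3K27ac. With 10 peaks per gene window as the minimum, chosen after seeing the data, 3.55% of genes lay below SOX10 for SMARCA4 length and 2.73% for H3K27ac length. Few reads per summit limit single peaks: weak lost peaks may have kept much of their coverage.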
